A study of Mus musculus with 42 samples.

Results

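The genes described here are those of the distal end of mouse chromosome 16 (mm10, from the start of Mrpl39 at 84717576 to the end of the chromosome) that are present in 3 copies in the Ts65Dn mouse, after leaving out those best known in Down syndrome research. The count files held 195 genes of that stretch. Of these, 20 were left out by name: Brwd1, Dyrk1a, Rcan1, App, Bace2, the interferon and interleukin receptor genes Ifnar1, Ifnar2, Ifngr2 and Il10rb, Olig1, Olig2, Hmgn1, Sod1, Cbr1, Grik1, Synj1, Kcnj6, Kcnj15, Atp5j and Atp5o. The remaining 175 genes, of 52636 in the files, are the members. Of these members 110 were annotated as protein-coding, and 72 had enough reads to be tested, against 17173 genes tested in all.

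RNA had been sequenced from neuronal cultures made from embryonic day 16 forebrain, with 3 libraries per genotype. Euploid cultures carried the normal chromosome number. Ts65Dn cultures came from mice with a marker chromosome that joins the distal end of chromosome 16 to the proximal end of chromosome 17, which gives an extra copy of the genes on both pieces. The last genotype, Ts65Dn;Brwd1+/-, combined that marker chromosome with the repro5 allele of Brwd1, a heterozygous loss-of-function allele meant to bring this gene alone back to 2 working copies. All cultures came from a mixed background of DBA/2J and B6EiC3Sn/J, had been treated with an inhibitor of cell division to limit glia, and are described by the labels as male and female pooled. The study's methods describe cortices dissociated embryo by embryo and animals kept apart in molecular work, which does not match the label of pooling. Whether the 3 libraries of a genotype came from separate litters is not given in the sources used here, so the p-values measure the spread between these libraries.

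In a cell with 3 copies of a gene in place of 2, each copy that is transcribed at its usual rate gives 1.5 times as much RNA, and this ratio is called the dosage ratio. Genes that stay clearly under it are often called dosage-compensated, and genes that exceed it are taken to respond to more than their own copy number. The members are not a pathway but a stretch of chromosome. They include ETS and RUNT family transcription factors, subunits of the ribosome of mitochondria, of a chaperonin and of a histone chaperone, proteins of endocytosis, adhesion molecules of neurons, small potassium channel subunits, antiviral GTPases and a large cluster of hair keratin-associated genes.

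Each library held from 17270070 to 25892802 reads assigned to genes, and levels are given as CPM (counts scaled by library size and TMM factor). Brwd1, which the design was meant to bring back, was at 126.8 CPM ± 2.13 (SD, n = 3) in Ts65Dn. It was at 138.5 ± 12.3 in libraries labelled Ts65Dn;Brwd1+/-. No fall in its RNA was detected (0.13 ± 0.08 (SE) on the log2 scale, adjusted p = 0.186, edgeR quasi-likelihood test). Counts over the whole gene do not separate the repro5 allele from the others, so they cannot decide whether the label holds. The libraries are called by their label throughout. The paper reports from qPCR, with separate primers for this check, that the cross rescued Brwd1 in embryonic forebrain of males. Xist lay between 0.526 and 1.12 CPM in the 6 euploid and Ts65Dn libraries and between 1409 and 1982 CPM in libraries labelled Ts65Dn;Brwd1+/-, while 4 Y-linked genes summed to between 193.8 and 223 CPM in the former and to 0.149 CPM or less in the latter. Sex and genotype therefore cannot be told apart in any comparison with these libraries, whereas Ts65Dn and euploid libraries had the same pattern. The 8 pan-neuronal markers examined (Snap25, Syt1, Tubb3, Map2, Rbfox3, Stmn2, Elavl4 and Syn1) summed to between 3644 and 4534 CPM in euploid, 966 and 2352 in Ts65Dn and 3683 and 4665 in libraries labelled Ts65Dn;Brwd1+/-, with the lowest value in Ts65Dn replicate 3. In bulk RNA, fewer cells of a type and less RNA per cell cannot be told apart.

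Across the 72 tested members, expression in Ts65Dn centred on the dosage ratio, with wide spread around it. The median log2 fold change vs. euploid was 0.60, a 1.52-fold ratio, where exact dosage would give 0.58. Taken library by library against the euploid mean, the median member ratio was 1.51, 1.5 and 1.51 in the 3 Ts65Dn libraries and 1.42, 1.45 and 1.38 in libraries labelled Ts65Dn;Brwd1+/-. The 3 euploid libraries gave 1.00, 0.987 and 1.03. All tested genes had a median of 0.04, and the 409 tested genes of chromosome 16 that lie before the segment had a median of 0.06. The interquartile range of the members ran over log2 fold changes from 0.23 to 0.99, a width of 0.76, which was close to the width of 0.65 among all tested genes (-0.28 to 0.37).

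Of the 72 tested members, 50 were higher in Ts65Dn than in euploid (69.4%, where 25.6% of all tested genes were higher) and 3 were lower (4.17%, where 21.1% of all tested genes were lower). The 3 that fell were Tiam1, B3galt5 and Pcp4. With the replicate number as a block and only these 2 genotypes in the fit, 5 fell, since Dscam and Dop1b joined them, and without the block that fit called 1. Without euploid replicate 1 or without euploid replicate 2 the test called 1. In 52 members every Ts65Dn library lay above every euploid library, against 31.2% of all tested genes, and in 3 members every Ts65Dn library lay below, against 25.5%. Each member was also tested against the dosage ratio itself. In this test, 21 members exceeded 1.5-fold (29.2%, background 6.72%) and 15 fell short of it (20.8%, background 65.7%, most genes outside the segment having 2 copies). In 5 of the 21 (Erg, Gm5678, Kcne1, Runx1 and Sim2) and 7 of the 50 the euploid libraries alone would not have passed the filter on low counts, so these entered through libraries where they were higher, and their excess is in part set by the filter. Among the members that exceeded it, 16 did so whichever single library was left out, and 11 of those that fell short did so. The 21 had a median log2 fold change of 1.47. A middle class of 25 members was higher than euploid and could not be told from 1.5-fold, with log2 fold changes from 0.39 to 1.2 and a median of 0.63. The 15 that fell short divided into 4 that were still higher than euploid, 8 that could not be told from euploid and the 3 that were lower. The last 11 members, of which 8 were not protein-coding, could be told neither from euploid nor from 1.5-fold, at a median level of 0.963 CPM.

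**Figure D1:**
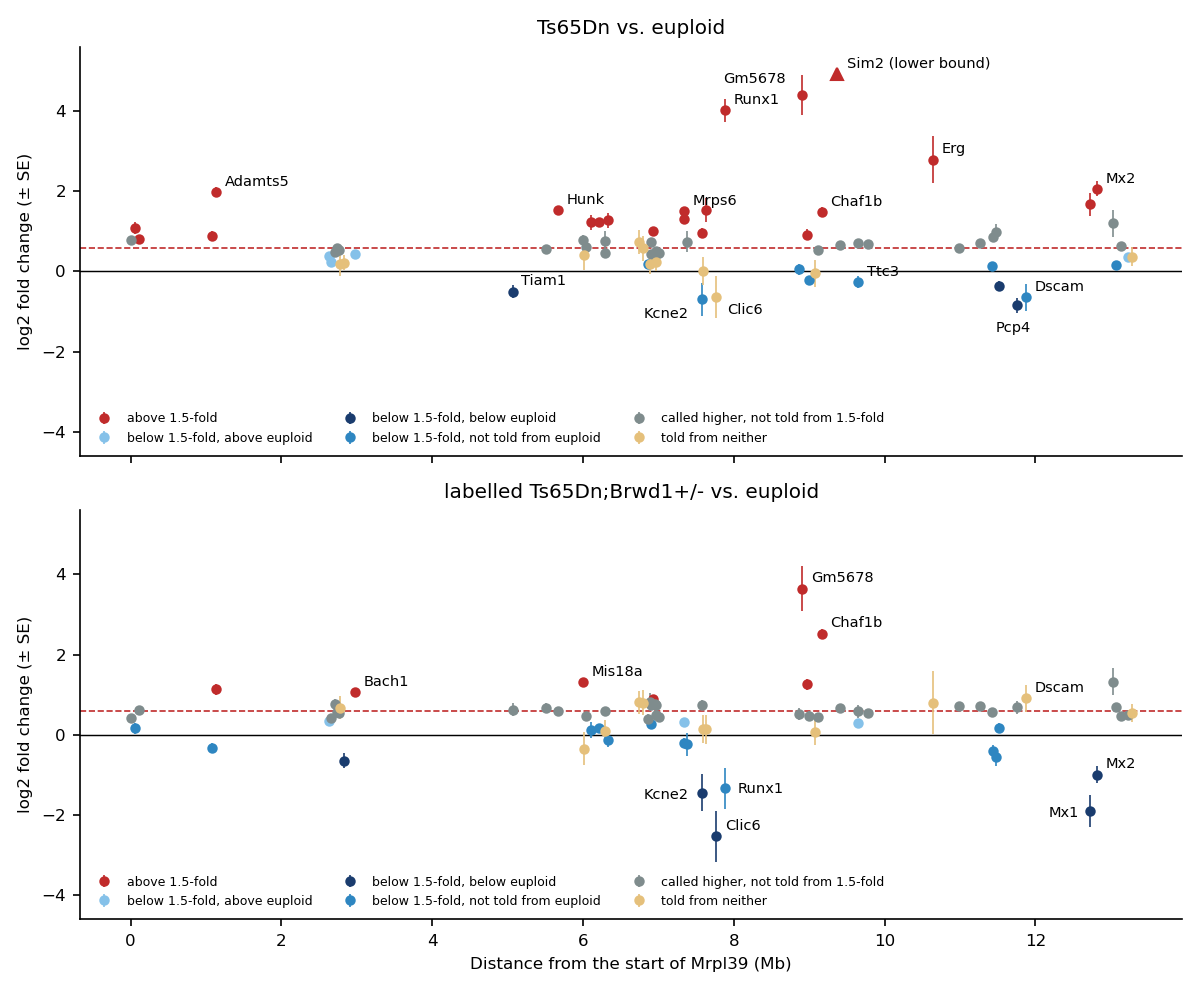
Log2 fold change with standard error of the tested members by distance from the start of Mrpl39 in Mb, in Ts65Dn (upper panel) and in libraries labelled Ts65Dn;Brwd1+/- (lower panel), each vs. euploid (n = 3 libraries per genotype). The solid line marks euploid and the dashed line 1.5-fold, colours mark the test result, and the triangle shows the lower bound of Sim2, which is left out of the lower panel because it had 6 reads there. Members above and members below 1.5-fold occur in most stretches of the segment in Ts65Dn, and many of the points far from the dashed line have neighbours close to it.

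Position along the segment did not order the ratios. Across the 72 members, Spearman's rank correlation between distance from Mrpl39 and log2 fold change was -0.05 in Ts65Dn vs. euploid and 0.01 in libraries labelled Ts65Dn;Brwd1+/- vs. euploid, as a description over genes that share the same libraries. In windows of 2 Mb from the start, the medians in Ts65Dn were 0.90 (5 members), 0.40 (8), 0.56 (3), 0.68 (28), 0.68 (12), 0.58 (9) and 0.63 (7). The first window, which holds Mrpl39, Jam2, Gabpa, Adamts1 and Adamts5, was the only one in which all members were higher than euploid, and 4 of its 5 exceeded 1.5-fold. In the second window, from N6amt1 to Bach1, none of 8 exceeded 1.5-fold and 3 fell short of it. Close neighbours often differed. Chaf1b, at 1.47, lies next to Morc3 (0.54), and Pigp (0.71) lies beside Ttc3 (-0.26). Just before the segment, 18 genes were tested in the last 10 Mb of disomic sequence. Their median was 0.05 and none exceeded 1.5-fold.

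Precision varied with expression more than the ratio did. The 24 least expressed members (0.310 to 5.71 CPM over the 9 libraries) had a median log2 fold change of 0.74 with a median SE of 0.29, the 24 in the middle (7.24 to 42.8 CPM) 0.60 with 0.11, and the 24 most expressed (46.6 to 1017 CPM) 0.55 with 0.09. The middle group lay nearest to dosage, at a median distance of 0.21 on the log2 scale, against 0.49 in the lowest and 0.38 in the highest. Of the 72, 10 members of low CPM, Runx1, Sim2, Erg, Gm5678 and Kcne1 among them, would not have passed the filter on their euploid libraries. The filter thus in part sets the values of the lowest group. All 11 members that could be told from neither reference were in the lowest group. In the highest group, 8 members exceeded 1.5-fold and 7 fell short.

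**Figure D2:**
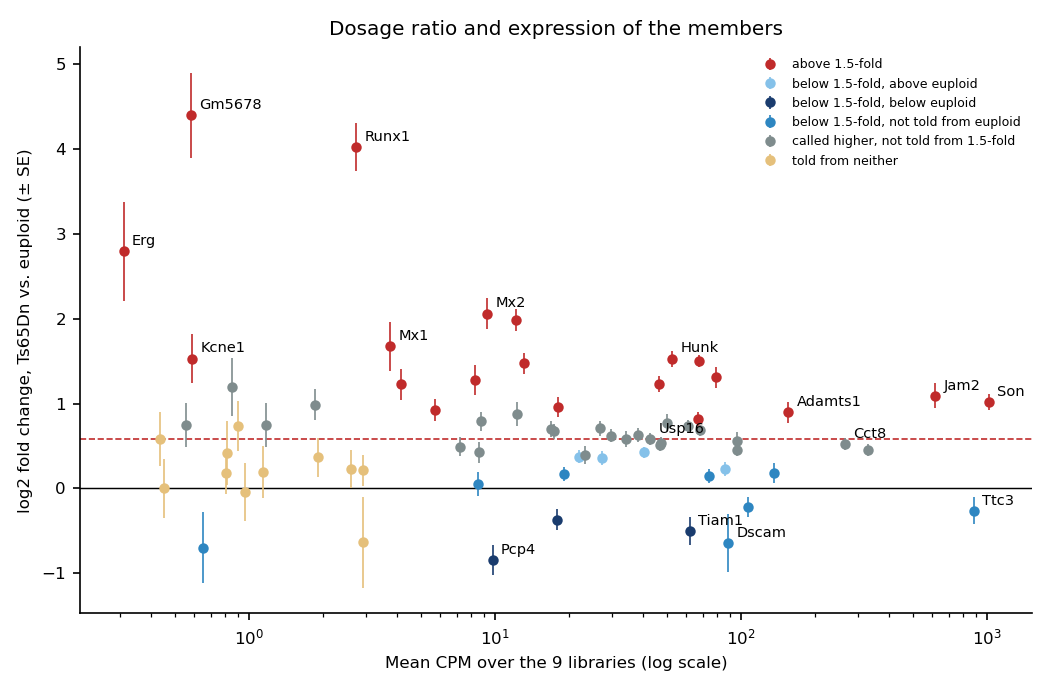
Log2 fold change in Ts65Dn vs. euploid with its standard error (n = 3 libraries per genotype) against mean CPM over the 9 libraries on a log axis, one point per tested member except Sim2, coloured by the test result. Error bars shrink from left to right, and the points on the right still span from Ttc3 at -0.26 to Son at 1.01 and Jam2 at 1.09.

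Promoter sequence is shown for members that ended in different classes, because the members code for ETS factors (Gabpa, Ets2 and Erg) and the ETS core can be looked for in their own promoters. The core CCGGAAG, searched on both strands (CTTCCGG is its reverse complement, and no other motif was searched), was found in the RefSeq promoter (GRCm38.p6, 250 bases before to 50 after the start) of 19 of the 55 tested members with such a window, or 34.5%. It was found in 17.7% of the tested genes with a window, in 9.93% of all genes with a window and in 8.86% of all promoters. The windows of Cct8 and B130034C11Rik nearly coincide, as do those of Donson and Gm10785, so matches within each pair may be the same site. A match is a string of letters and not a bound site. The promoters of Gabpa (chr16:84834874-84835123, plus strand), which exceeded 1.5-fold, of Usp16 (chr16:87454735-87454984, plus strand), which could not be told from 1.5-fold, of Chaf1b (chr16:93883651-93883900, plus strand), which exceeded 1.5-fold in both trisomic genotypes, and of Dscam (chr16:97170736-97170985, minus strand), which fell short of it, each hold 1 match, given in capitals and beginning 93, 12, 136 and 233 bases before the RefSeq start, where each line ends.
Gabpa: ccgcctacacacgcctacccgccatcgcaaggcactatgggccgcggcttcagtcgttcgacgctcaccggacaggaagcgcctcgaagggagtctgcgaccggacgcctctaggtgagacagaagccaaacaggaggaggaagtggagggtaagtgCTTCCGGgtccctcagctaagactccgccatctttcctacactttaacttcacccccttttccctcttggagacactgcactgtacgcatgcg
Usp16: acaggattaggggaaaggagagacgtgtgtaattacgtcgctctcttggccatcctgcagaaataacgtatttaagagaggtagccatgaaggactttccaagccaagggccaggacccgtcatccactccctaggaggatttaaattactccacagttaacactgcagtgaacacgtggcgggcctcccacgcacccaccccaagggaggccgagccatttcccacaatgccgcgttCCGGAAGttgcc
Chaf1b: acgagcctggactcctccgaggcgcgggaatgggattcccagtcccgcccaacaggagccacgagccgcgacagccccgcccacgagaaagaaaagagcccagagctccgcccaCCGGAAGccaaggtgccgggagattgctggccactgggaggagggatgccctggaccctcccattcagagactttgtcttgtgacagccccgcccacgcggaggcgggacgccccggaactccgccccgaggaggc
Dscam: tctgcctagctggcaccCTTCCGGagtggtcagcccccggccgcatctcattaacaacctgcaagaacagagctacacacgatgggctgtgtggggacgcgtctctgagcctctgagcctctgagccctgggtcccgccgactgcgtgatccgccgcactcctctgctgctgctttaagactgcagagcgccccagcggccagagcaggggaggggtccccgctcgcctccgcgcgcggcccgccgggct

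Among the members told to exceed 1.5-fold in Ts65Dn, 4 of 14 with a promoter window held the core, against 8 of 21 in the class higher than euploid and not told from 1.5-fold, 4 of 14 among all that fell short of it, and 3 of 6 among those told from neither reference. Open chromatin at the starts of the members in the gene annotation, which are not always those of the RefSeq windows, was available from neuronal nuclei of the hippocampus of adult male mice of the 3 genotypes (ATAC-seq, 3 samples each), as 1 peak list per genotype and so without replicate error. A peak within 1000 bp of the start was listed for 47 of the 72 tested members in euploid (65.3%, against 53.5% of all tested genes), for 52 in Ts65Dn (72.2%, against 64.3%) and for 53 in Ts65Dn;Brwd1+/- (73.6%, against 63.2%). Over all 175 members, 51 had such a peak in every list and 113 in none, and 7 had a peak in Ts65Dn without one in euploid. The matching shares over all genes were not computed, so these 3 counts only describe the members. The lists differ in length (15521, 29195 and 30244 peaks). Fold enrichment at the Usp16 promoter was 5.99, 6.53 and 4.72 in the same order, at that of Gabpa 5.20, 4.92 and 4.62 and at that of Chaf1b 3.83, 4.47 and 3.41. The Dscam start had no euploid peak, and 3.47 and 2.48 in the other lists. SMARCA2/4, the ATPases of the BAF remodelling complex, were mapped by ChIP-seq in hippocampus of adult males of 6 to 8 weeks per the labels (4 samples per genotype, each pooling 1 hippocampus from each of 2 animals, and 1 list per genotype). They had peaks at the starts of 25 of the 72 tested members in euploid hippocampus (34.7%, against 29.7% of all tested genes). In Ts65Dn none had one (background 0.449%) and in Ts65Dn;Brwd1+/- 1 had (background 1.26%), in lists that were much shorter after the same filter (19897, 410 and 1090 peaks). Over all 175 members the Ts65Dn;Brwd1+/- count was 1, and it was 6 in the list as deposited and 2 with a window of double the width.

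Of 9 transcription factors listed, 8 were tested, 7 were higher in Ts65Dn than in euploid and none was lower, where 25.6% of all tested genes were higher, but 3 of the 7 (Runx1, Sim2 and Erg) would not have passed the filter on their euploid libraries. Runx1, which directs blood stem cell formation and is also used by some sensory neurons, changed most among those with reads in all libraries. Runx1 stood at 0.485, 0.351 and 0.546 CPM in euploid, 5.43, 8.55 and 8.65 in Ts65Dn and 0.0892, 0.167 and 0.261 in libraries labelled Ts65Dn;Brwd1+/-. Its log2 fold change in Ts65Dn vs. euploid was 4.02 ± 0.28 (SE), adjusted p = 6.37e-06, and in libraries labelled Ts65Dn;Brwd1+/- vs. Ts65Dn it fell by 5.36 ± 0.33 (adjusted p = 1.46e-06). The Ts65Dn libraries held every high value, and the libraries labelled Ts65Dn;Brwd1+/- lay below euploid without a call (-1.34 ± 0.52, adjusted p = 0.0784). Sim2, a bHLH-PAS factor of the ventral midline, had no reads in euploid, 30, 23 and 41 in Ts65Dn and 1, 1 and 4 in libraries labelled Ts65Dn;Brwd1+/-, so it was at least 30.4-fold higher in Ts65Dn, taking 3 reads over the 3 euploid libraries as the floor. Erg, an ETS factor of endothelium and cartilage, had 3, 3 and 0 reads in euploid, 13, 15 and 17 in Ts65Dn and 1, 4 and 6 in libraries labelled Ts65Dn;Brwd1+/- (Ts65Dn vs. euploid ratio 7.27, 95% interval 3.09 to 20.9 from counting error only). These 3 genes were at or below a mean of 7.54 CPM in every group. The endothelial markers examined summed to 81.2 to 90.3 CPM in euploid, 654 to 860.3 in Ts65Dn and 86.9 to 129 in libraries labelled Ts65Dn;Brwd1+/-, nearly all of it Kdr, with 1 of the 3 tested higher in Ts65Dn and the defining marker Cldn5 at 0 in all 9 libraries, and their part in the values of Erg and Runx1 was not tested.

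The more highly expressed factors lay closer to the dosage ratio. Ets2, an ETS factor that responds to Ras signalling, lay on the dosage ratio (Ets2 stood at 27.1, 23.2 and 23.9 CPM in euploid, 38.8, 39.7 and 32.4 in Ts65Dn and 42.2, 39.1 and 39.9 in libraries labelled Ts65Dn;Brwd1+/-), with 0.58 ± 0.10 (SE), adjusted p = 0.0011 vs. euploid and adjusted p = 0.973 against 1.5-fold. Gabpa, the DNA-binding subunit of nuclear respiratory factor 2, which drives genes of mitochondria, was at 0.82 ± 0.09 and was told to exceed 1.5-fold (adjusted p = 0.0343), although that call was lost when any of 6 of the 9 libraries was left out (highest adjusted p = 0.122), among them euploid replicates 2 and 3 and Ts65Dn replicate 3. It shares exon bases with Atp5j. Bach1, a haem-regulated repressor of oxidative stress genes, differed between the trisomic genotypes. Bach1 stood at 26, 27.7 and 28.1 CPM in euploid, 36.3, 37.1 and 36.9 in Ts65Dn and 55.7, 56.3 and 58.4 in libraries labelled Ts65Dn;Brwd1+/-. It fell short of dosage in Ts65Dn (0.43 ± 0.06, adjusted p against 1.5-fold = 0.0462), a call lost without any one of 5 libraries (euploid replicates 2 and 3 and each of Ts65Dn), and exceeded it in libraries labelled Ts65Dn;Brwd1+/- (1.06 ± 0.06, adjusted p against 1.5-fold = 8.58e-05). The difference between the 2 trisomic genotypes was 0.63 ± 0.06 (SE), adjusted p = 2.11e-05. Prdm15 (a PR-domain zinc finger protein) and Zbtb21 (a BTB zinc finger repressor) fell short of 1.5-fold in Ts65Dn, at 0.17 and 0.35, with the call of Zbtb21 lost without euploid replicate 1 or Ts65Dn replicate 1 or 2 (highest adjusted p = 0.0817).

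Of the 7 genes for chromatin and DNA, all tested, 6 were higher in Ts65Dn than in euploid and none was lower (over all tested genes 25.6% and 21.1%). All 7 were higher in libraries labelled Ts65Dn;Brwd1+/- than in euploid, where 14% of all tested genes were higher. Chaf1b, the middle subunit of the CAF-1 chaperone that places histones on newly copied DNA, exceeded dosage in both trisomic genotypes. Chaf1b stood at 3.79, 4.52 and 4.1 CPM in euploid, 9.88, 11.9 and 12.8 in Ts65Dn and 24.6, 22.3 and 24.4 in libraries labelled Ts65Dn;Brwd1+/-. The 3 groups did not overlap. Its log2 fold change vs. euploid was 1.47 ± 0.12 in Ts65Dn and 2.52 ± 0.12 in libraries labelled Ts65Dn;Brwd1+/- (adjusted p against 1.5-fold = 9.83e-05 and 4.73e-06), and the libraries labelled Ts65Dn;Brwd1+/- lay above Ts65Dn by 1.05 ± 0.11 (SE), adjusted p = 2.77e-05. Mis18a, which helps to load the centromeric histone, followed the same order: the 3 euploid libraries held 5.15, 5.44 and 4.6 CPM of Mis18a, the 3 Ts65Dn libraries 8.41, 8.94 and 8.92 and the 3 libraries labelled Ts65Dn;Brwd1+/- 14, 11.4 and 12.1. It exceeded 1.5-fold in libraries labelled Ts65Dn;Brwd1+/- (adjusted p = 2.25e-04), while in Ts65Dn it could not be told from it (0.79 ± 0.11, adjusted p = 0.13). The 8 cell cycle markers examined had summed levels of 233 to 246 CPM in euploid, 315 to 366 in Ts65Dn and 529 to 539 in libraries labelled Ts65Dn;Brwd1+/-, and their part in these values was not tested. Paxbp1, which links PAX factors to histone methylation, and Morc3, a chromatin ATPase of PML bodies, could not be told from 1.5-fold in Ts65Dn, at 0.45 ± 0.07 and 0.54 ± 0.07. Setd4, a SET-domain methyltransferase, fell short of it at 0.05 ± 0.15, with 7.23, 7.37 and 7.6 CPM in euploid and 9.15, 7.41 and 6.44 in Ts65Dn, which overlap, and its call above euploid in libraries labelled Ts65Dn;Brwd1+/- (0.52, adjusted p = 0.0213) was lost without any euploid library or replicate 1 or 3 of that group (adjusted p from 0.0549 to 0.0956). N6amt1, a methyltransferase of translation termination factor, was at 0.38.

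All 5 RNA processing and ribosome genes were higher than euploid in both trisomic genotypes, and none fell short of dosage in Ts65Dn. Over all tested genes, 25.6% were higher in Ts65Dn, 14% were higher in libraries labelled Ts65Dn;Brwd1+/- and 65.7% fell short of 1.5-fold in Ts65Dn. Son, a nuclear speckle protein needed for splicing of weak introns, was the member with the highest mean CPM. Son stood at 621, 604 and 654 CPM in euploid, 1204, 1252 and 1338 in Ts65Dn and 1091, 1279 and 1107 in libraries labelled Ts65Dn;Brwd1+/-. It rose in Ts65Dn (1.01 ± 0.09 (SE), adjusted p = 3.56e-05, 2.02-fold) and was at 1.85-fold in libraries labelled Ts65Dn;Brwd1+/-, and exceeded 1.5-fold in each (adjusted p = 0.00177 and 0.0124). Without replicate 2 of those labelled Ts65Dn;Brwd1+/- the latter p was 0.0832. Son shares exon bases with its neighbour Donson, a replication fork protein, which lay at 0.39 in Ts65Dn. Scaf4, which binds RNA polymerase II and restrains early polyadenylation, and Urb1, a factor of the large ribosomal subunit, lay on the dosage ratio in Ts65Dn (0.56 ± 0.10 and 0.62 ± 0.07, adjusted p against 1.5-fold = 0.845 and 0.665). Mrpl39 and Mrps6 code for proteins of the 2 subunits of the ribosome of mitochondria and parted. Mrpl39, at the start of the segment, was at 38.5, 34.5 and 38.6 CPM in euploid and 61.3, 61 and 68.7 in Ts65Dn (0.78 ± 0.10). Its 0.42 in libraries labelled Ts65Dn;Brwd1+/- (adjusted p = 0.0111) lost its call without replicate 2 or 3 of that group (adjusted p = 0.0589 and 0.0620). Mrps6 held 36.5, 41.2 and 41.7 CPM in euploid, 113, 110.4 and 116 in Ts65Dn and 48.3, 51.3 and 48.9 in libraries labelled Ts65Dn;Brwd1+/-, a 2.84-fold ratio in Ts65Dn and 1.24-fold in the last, short of dosage there (adjusted p against 1.5-fold = 0.00586). Mrps6 shares exon bases with Slc5a3.

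Most protein quality genes lay near the dosage ratio. Of 7 tested, 6 were higher in Ts65Dn than in euploid, none exceeded 1.5-fold and 2 fell short of it (over all tested genes 25.6%, 6.72% and 65.7%). Cct8 stood at 208, 194 and 212 CPM in euploid, 298, 293 and 292 in Ts65Dn and 301, 287 and 299.6 in libraries labelled Ts65Dn;Brwd1+/-, where Cct8 is the theta subunit of the chaperonin that folds actin and tubulin. Its log2 fold change was 0.52 ± 0.07 in Ts65Dn and 0.53 ± 0.07 in libraries labelled Ts65Dn;Brwd1+/-, and each trisomic library lay above each euploid library. Usp16, which removes ubiquitin from histone H2A, was among the members nearest to 1.5-fold, at 0.58 ± 0.07 (SE), adjusted p = 2.03e-04 vs. euploid and adjusted p = 0.974 against 1.5-fold. Usp16 stood at 31.8, 30.4 and 34.5 CPM in euploid, 49.1, 46.6 and 49 in Ts65Dn and 47.4, 49.9 and 46.1 in libraries labelled Ts65Dn;Brwd1+/-. The trisomic groups overlapped each other and neither overlapped euploid. Usp16 and Cct8 share exon bases. Psmg1, which helps to assemble the proteasome, was at 0.70 and 0.72 in the 2 trisomic genotypes, and Ltn1, the ubiquitin ligase of stalled ribosomes, fell short of dosage at 0.23 ± 0.08 in Ts65Dn.

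The exception in this group was Ttc3, a ubiquitin ligase that acts on phosphorylated AKT and is abundant in neurons. Ttc3 stood at 881, 767 and 740.4 CPM in euploid, 785, 710.1 and 494 in Ts65Dn and 1309.7, 1164 and 1101 in libraries labelled Ts65Dn;Brwd1+/-. In Ts65Dn it was not told from euploid, at -0.26 ± 0.16 (SE), adjusted p = 0.20, and fell short of 1.5-fold (adjusted p = 7.53e-04, and at most 0.0042 with any one library left out). Against euploid it was at -0.09 without Ts65Dn replicate 3 and at -0.40 without Ts65Dn replicate 1 (adjusted p = 0.571 and 0.0634). It lay 0.85 ± 0.16 higher on the log2 scale in libraries labelled Ts65Dn;Brwd1+/- than in Ts65Dn (adjusted p = 0.00129). Euploid and Ts65Dn overlapped, and the lowest value was that of Ts65Dn replicate 3, the library with the lowest pan-neuronal sum. Pigp, a subunit of the enzyme that begins GPI anchor synthesis, shares exon bases with Ttc3 and was at 0.71 ± 0.09 in Ts65Dn.

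Dscam, Tiam1, Pcp4 and Dop1b, of other role groups, were among the members lowest below 1.5-fold in Ts65Dn and are described together for that reason. Dscam, a homophilic adhesion molecule that keeps sister neurites apart, was at 74.9, 88.9 and 62.7 CPM in euploid, 67.6, 57.2 and 20.3 in Ts65Dn and 165, 122 and 137 in libraries labelled Ts65Dn;Brwd1+/-. Replicate 3 of Ts65Dn was far below the other Ts65Dn libraries, which overlapped euploid, and the libraries labelled Ts65Dn;Brwd1+/- lay above all others. Its log2 fold change was -0.64 ± 0.34 (SE), adjusted p = 0.151 in Ts65Dn vs. euploid, short of 1.5-fold (adjusted p = 0.00846), and 1.55 ± 0.35 (SE), adjusted p = 0.00336 in libraries labelled Ts65Dn;Brwd1+/- vs. Ts65Dn. With the replicate number as a block and only euploid and Ts65Dn in the fit, the fall in Ts65Dn passed the test (-0.82, adjusted p = 0.0419), and without Ts65Dn replicate 1 (-0.96, adjusted p = 0.0490) or with no filter on low counts (-0.68, adjusted p = 0.0143) it did too. Without Ts65Dn replicate 3 it was -0.27 (adjusted p = 0.177). Tiam1, a RAC1 exchange factor that shapes dendritic spines, was at 59.7, 57.9 and 54.7 CPM in euploid, 49.1, 44.7 and 28 in Ts65Dn and 94.4, 83.2 and 86.9 in libraries labelled Ts65Dn;Brwd1+/-, 3 ranges that did not overlap. It fell in Ts65Dn by 0.50 ± 0.17 on the log2 scale (adjusted p = 0.0328), with adjusted p = 0.0885 and 0.0782 without euploid replicates 1 and 2 and a smaller fall of -0.29 (adjusted p = 0.0201) without Ts65Dn replicate 3. It lay 1.12 ± 0.17 higher in libraries labelled Ts65Dn;Brwd1+/- than in Ts65Dn (adjusted p = 3.00e-04).

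Pcp4, a small calmodulin-binding protein of neurons, was the tested member with the lowest log2 fold change in Ts65Dn vs. euploid (-0.85 ± 0.18 (SE), adjusted p = 0.00372). Pcp4 stood at 8.45, 10.3 and 9.15 CPM in euploid, 6.21, 5.58 and 3.71 in Ts65Dn and 16, 13 and 15.8 in libraries labelled Ts65Dn;Brwd1+/-. None of the 3 ranges overlapped, and the difference between the trisomic genotypes was 1.53 ± 0.17 (SE), adjusted p = 4.81e-05. Dop1b, which acts in transport from endosomes to the Golgi, was at 95.4, 106 and 94.5 CPM in euploid, 92.8, 91.4 and 69.8 in Ts65Dn and 152, 129 and 128 in libraries labelled Ts65Dn;Brwd1+/-, with -0.22 ± 0.12 in Ts65Dn vs. euploid (adjusted p = 0.151, or 0.0480 at -0.27 with the replicate block and these 2 genotypes alone, and 0.452 at -0.10 without Ts65Dn replicate 3) and 0.69 ± 0.12 between the trisomic genotypes (adjusted p = 7.24e-04). All 8 pan-neuronal markers were lower in Ts65Dn than in euploid and higher in libraries labelled Ts65Dn;Brwd1+/- than in Ts65Dn. Median log2 fold changes of these markers were -1.28 and 1.1. Of 8 markers each, 6 glutamatergic and 8 GABAergic neuron markers fell in Ts65Dn. Their part in the values of Ttc3, Dscam, Tiam1, Pcp4 and Dop1b was not tested.

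**Figure D3:**
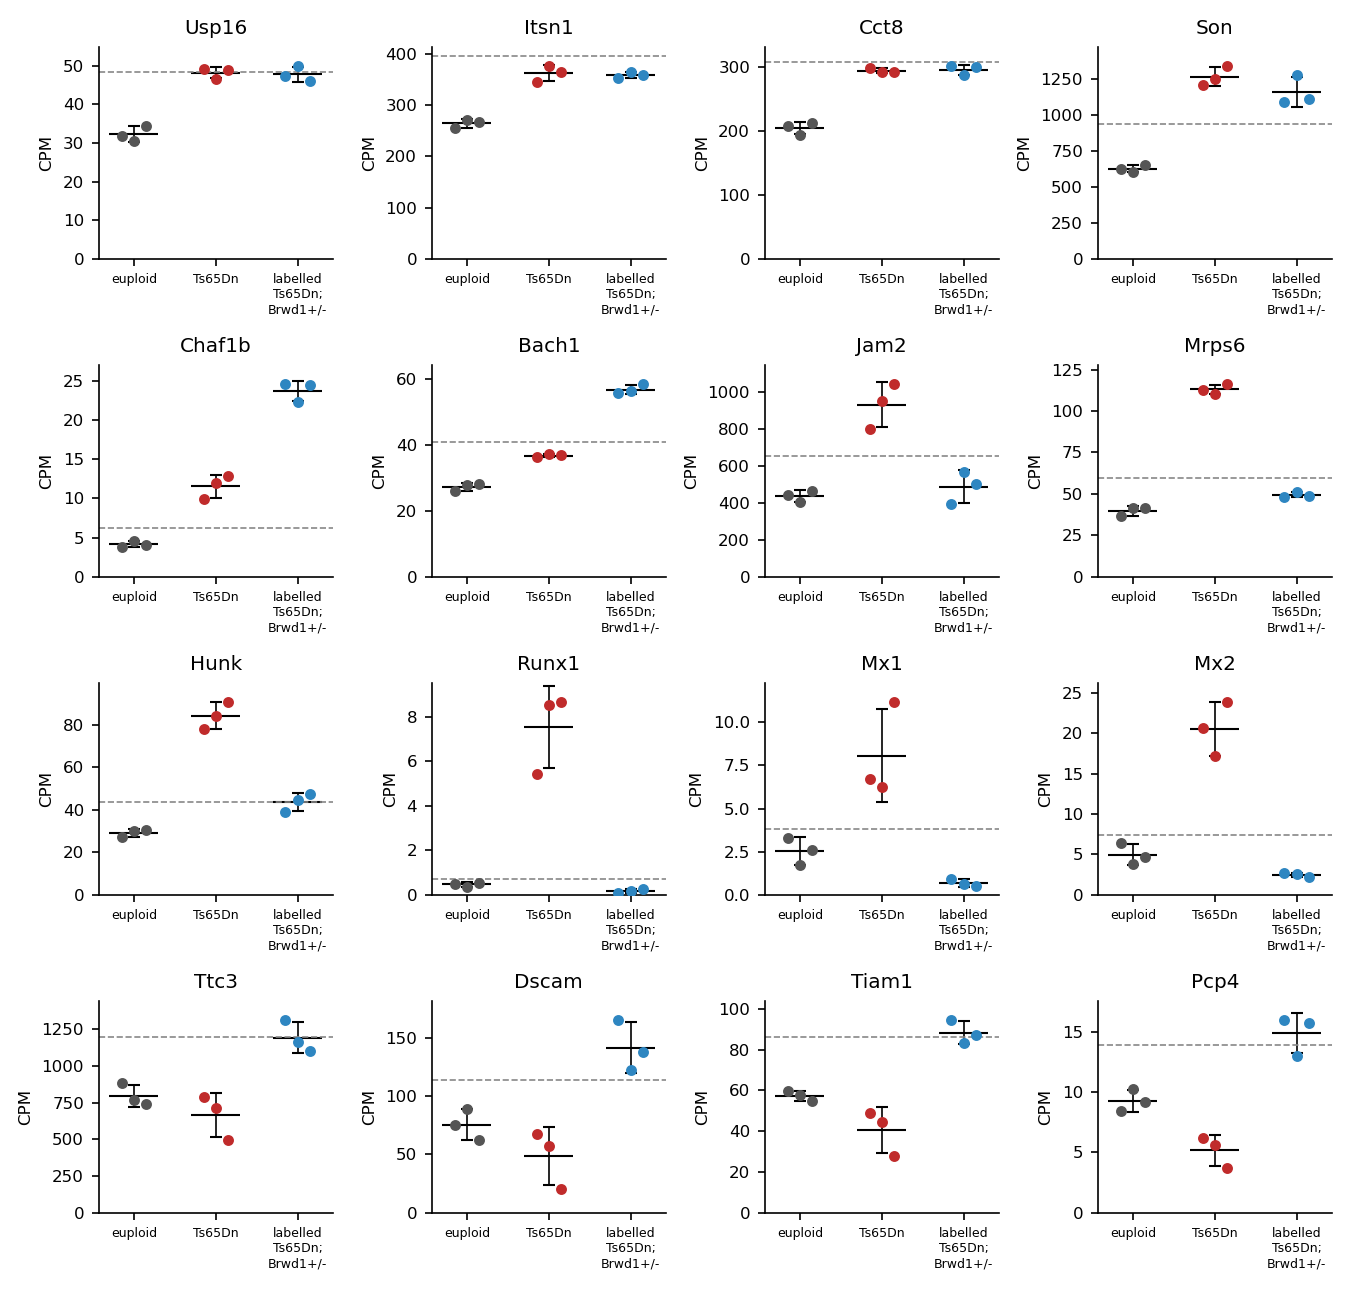
CPM in each of the 9 libraries for 16 members, with the mean as a line and the SD as an error bar (n = 3 per genotype). Each dashed line marks 1.5 times the euploid mean and each axis starts at 0. Usp16, Itsn1 and Cct8 sit on or near the dashed line in both trisomic groups, Jam2, Mrps6, Hunk, Runx1, Mx1 and Mx2 rise above it in Ts65Dn, and Ttc3, Dscam, Tiam1 and Pcp4 stay under it in Ts65Dn.

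Of the 6 trafficking genes, 3 were higher in Ts65Dn than in euploid, 1 exceeded 1.5-fold and 3 fell short (over all tested genes 25.6%, 6.72% and 65.7%). Itsn1, a scaffold of clathrin-mediated endocytosis, could not be told from 1.5-fold in either trisomic genotype. Itsn1 stood at 255, 271 and 268 CPM in euploid, 346, 376 and 365 in Ts65Dn and 354, 365 and 359 in libraries labelled Ts65Dn;Brwd1+/-. It was at 0.45 ± 0.07 and 0.44 ± 0.07, with no difference detected between them (95% interval -0.17 to 0.14). Vps26c, of the retriever complex that recycles integrins, was at 0.68 ± 0.06 in Ts65Dn. Tmem50b, a membrane protein of the endoplasmic reticulum and Golgi, was at 134, 115 and 105 CPM in euploid and 145, 139 and 116 in Ts65Dn (0.18 ± 0.12, adjusted p against 1.5-fold = 0.0109), with values from 0.05 without euploid replicate 3 to 0.28 without euploid replicate 1. Wrb (Get1), the receptor that inserts tail-anchored proteins, was at 0.14 ± 0.08, short of dosage as well. Eva1c, a receptor for the axon guidance protein SLIT, went the other way, at 1.23 ± 0.18 in Ts65Dn (adjusted p against 1.5-fold = 0.00839) and 0.12 ± 0.19 in libraries labelled Ts65Dn;Brwd1+/-.

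The other 3 tested adhesion and matrix genes exceeded dosage in Ts65Dn, where 6.72% of all tested genes did. Jam2, a junctional adhesion molecule of endothelium that is also found on neurons and glia, was abundant, with 440.1, 403 and 465 CPM in euploid, 799, 951 and 1039 in Ts65Dn and 392, 568 and 499 in libraries labelled Ts65Dn;Brwd1+/-. Every Ts65Dn library was above every other library, and the euploid and labelled Ts65Dn;Brwd1+/- ranges overlapped. It rose in Ts65Dn by 1.09 ± 0.14 (SE), adjusted p = 3.33e-04, and fell by 0.94 ± 0.14 between Ts65Dn and the libraries labelled Ts65Dn;Brwd1+/- (adjusted p = 3.61e-04), where it was short of 1.5-fold vs. euploid (adjusted p = 0.0198). The 8 astrocyte markers examined summed to 2470 to 3084 CPM in euploid, 2636 to 3209 in Ts65Dn and 2967 to 3345 in libraries labelled Ts65Dn;Brwd1+/-, and of the 7 tested 4 rose and 2 fell in Ts65Dn, with Aqp4 at 1.43 and Slc1a2 at -0.98. Their part in the values of Jam2 was not tested. The matrix proteases Adamts1 and Adamts5, which cleave aggrecan and versican, lie side by side. Adamts5 stood at 5.82, 4.56 and 5.01 CPM in euploid, 18.3, 23.4 and 19.4 in Ts65Dn and 10.5, 11.2 and 11.9 in libraries labelled Ts65Dn;Brwd1+/-, which puts Adamts5 above 1.5-fold in both (adjusted p = 1.20e-05 and 0.00324). Adamts1 was at 119, 135 and 130.0 CPM in euploid, 195, 257 and 263 in Ts65Dn and 89.4, 109.8 and 105 in libraries labelled Ts65Dn;Brwd1+/-, 0.90 ± 0.12 and -0.34 ± 0.12 vs. euploid. Its excess over 1.5-fold in Ts65Dn (adjusted p = 0.0416) was lost when any of 8 of the 9 libraries was left out, all but Ts65Dn replicate 1, with adjusted p up to 0.134. The tight junction genes Cldn8, Cldn14 and Cldn17, Igsf5 and Cyyr1 had too few reads to be tested. Of the 8 fibroblast and meninges markers examined, 5 rose and 3 fell in Ts65Dn, and their summed level was 374 to 478 CPM in euploid, 821 to 1361 in Ts65Dn and 250.3 to 305 in libraries labelled Ts65Dn;Brwd1+/-. Their part in the values of these members was not tested.

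Among 8 signalling genes, 7 were tested, 4 were higher in Ts65Dn and 2, Tiam1 and Pcp4, were lower (over all tested genes 25.6% and 21.1%). Hunk, a kinase of the AMPK family, exceeded dosage in Ts65Dn (1.53 ± 0.09 (SE), adjusted p = 3.02e-06) and lay on it in libraries labelled Ts65Dn;Brwd1+/- (0.58 ± 0.09, adjusted p against 1.5-fold = 0.967). Hunk stood at 27.1, 29.9 and 30.5 CPM in euploid, 77.9, 84.3 and 90.7 in Ts65Dn and 39, 44.4 and 47.5 in libraries labelled Ts65Dn;Brwd1+/-, and the 3 ranges did not overlap. Ripk4, a kinase of epidermal differentiation, was low, at 0.243, 0.702 and 0.364 CPM in euploid and 1.06, 0.889 and 1.1 in Ts65Dn. Ripk4 would not have passed the filter on its euploid libraries, so its rise is in part set by the filter. Sh3bgr, a glutaredoxin-like protein of muscle, was at 0.99 ± 0.19 in Ts65Dn and -0.56 ± 0.22 in libraries labelled Ts65Dn;Brwd1+/-, and C2cd2, a lipid transfer protein, was at 0.63 and 0.48.

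Of the 4 channel and transporter genes, all tested, 2 were higher in Ts65Dn than in euploid, 1 fell short of 1.5-fold there, and 3 were lower in libraries labelled Ts65Dn;Brwd1+/- than in Ts65Dn (over all tested genes 25.6%, 65.7% and 30.5%). Of these 3 falls, that of Clic6 was lost when any of 4 single libraries was left out. Kcne1, among both the rises and the falls, would not have passed the filter on its euploid libraries, so the filter in part sets both calls. Slc5a3, the sodium-coupled transporter of myo-inositol, was at 65.9, 47.8 and 51.2 CPM in euploid, 128, 134 and 146 in Ts65Dn and 43.3, 52 and 46.5 in libraries labelled Ts65Dn;Brwd1+/-. It rose in Ts65Dn (1.31 ± 0.12 (SE), adjusted p = 3.85e-05), where every Ts65Dn library exceeded every other library, and fell by 1.53 ± 0.12 between Ts65Dn and the libraries labelled Ts65Dn;Brwd1+/- (adjusted p = 6.06e-06). Kcne1 and Kcne2 code for small subunits that slow or shape potassium currents and were near the lower limit of detection. Kcne1 had 7, 6 and 10 reads in euploid and 24, 26 and 19 in Ts65Dn (1.53 ± 0.29), and its call above 1.5-fold was lost without euploid replicate 2 or Ts65Dn replicate 2 (adjusted p up to 0.0636). Kcne2 had 14, 36 and 15 reads in euploid, 12, 9 and 20 in Ts65Dn and 11, 7 and 6 in libraries labelled Ts65Dn;Brwd1+/-. In Ts65Dn it fell short of 1.5-fold, a call lost without euploid replicate 2 or Ts65Dn replicate 1 or 2 (adjusted p up to 0.121). Clic6, an ion channel protein of secretory epithelium such as choroid plexus, had 36, 226 and 60 reads in euploid, 62, 85 and 61 in Ts65Dn and 13, 15 and 28 in libraries labelled Ts65Dn;Brwd1+/-, so euploid replicate 2 held most of its euploid reads. Its log2 fold change in Ts65Dn vs. euploid was -0.63 ± 0.53, and 0.47 without that library.

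Of 8 metabolic and ciliary genes tested, 7 were higher in Ts65Dn than in euploid, 2 exceeded 1.5-fold and 1 fell short (over all tested genes 25.6%, 6.72% and 65.7%). In libraries labelled Ts65Dn;Brwd1+/- 5 were higher, 1 exceeded 1.5-fold and 4 fell short (over all tested genes 14%, 3.59% and 73.2%). Gart, which carries out 3 steps of purine synthesis, was at 40.3, 43.6 and 42.5 CPM in euploid, 65.9, 69.1 and 74.7 in Ts65Dn and 66.8, 70.9 and 72.5 in libraries labelled Ts65Dn;Brwd1+/- (0.73 ± 0.07 and 0.73 ± 0.07). The quinone reductase-like gene Cryzl1 was at 0.51 ± 0.07 and 0.49 ± 0.07, and Hlcs, which attaches biotin to carboxylases, at 0.67 ± 0.09 and 0.67 ± 0.09. In these 3 members the euploid range lay below both trisomic ranges. Cfap298, needed for motile cilia, rose to 73.2, 66.9 and 79.8 CPM in Ts65Dn from 29.1, 31.6 and 33.1 in euploid and was at 32.2, 34.8 and 38.7 in libraries labelled Ts65Dn;Brwd1+/-, above 1.5-fold in the former (adjusted p = 1.48e-04) and short of it in the latter (adjusted p = 0.00272). Cbr3, a carbonyl reductase, was at 0.92 and 1.25. Its excess over 1.5-fold in Ts65Dn was lost when any of 7 libraries was left out, all but euploid replicate 3 and replicate 1 of those labelled Ts65Dn;Brwd1+/- (adjusted p up to 0.134). B3galt5, a galactosyltransferase of glycolipids, was lower in Ts65Dn than in euploid (-0.37 ± 0.13 (SE), adjusted p = 0.0372), a call lost without euploid replicate 1 or 2 or Ts65Dn replicate 2 or 3 (adjusted p from 0.0574 to 0.133).

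The antiviral GTPases Mx1 and Mx2, which interferon induces, rose together in Ts65Dn. Mx1 stood at 3.3, 1.71 and 2.59 CPM in euploid, 6.74, 6.27 and 11.2 in Ts65Dn and 0.936, 0.612 and 0.485 in libraries labelled Ts65Dn;Brwd1+/-. The 3 euploid libraries held 6.36, 3.77 and 4.69 CPM of Mx2, the 3 Ts65Dn libraries 20.6, 17.1 and 23.8 and the 3 libraries labelled Ts65Dn;Brwd1+/- 2.72, 2.51 and 2.2. In both genes every Ts65Dn library lay above every euploid library, and every library labelled Ts65Dn;Brwd1+/- lay below. Log2 fold changes in Ts65Dn vs. euploid were 1.68 ± 0.29 and 2.06 ± 0.18 (adjusted p = 0.0013 and 3.10e-05), and both exceeded 1.5-fold. In the libraries labelled Ts65Dn;Brwd1+/- vs. euploid they fell by 1.90 ± 0.39 and 1.00 ± 0.22 (adjusted p = 0.00514 and 0.00676). The annotation classes Mx2 as a polymorphic pseudogene, and Mx1 and Mx2 are similar in sequence, so reads could be shared between them. The other listed members of this group, Tmprss2 and Fam3b, had too few reads to be tested. The 8 microglia markers examined summed to 7.69 to 14.4 CPM in euploid, 4.15 to 6.17 in Ts65Dn and 1.05 to 1.74 in libraries labelled Ts65Dn;Brwd1+/-, and of the 5 tested none rose and 2 fell in Ts65Dn.

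**Figure D4:**
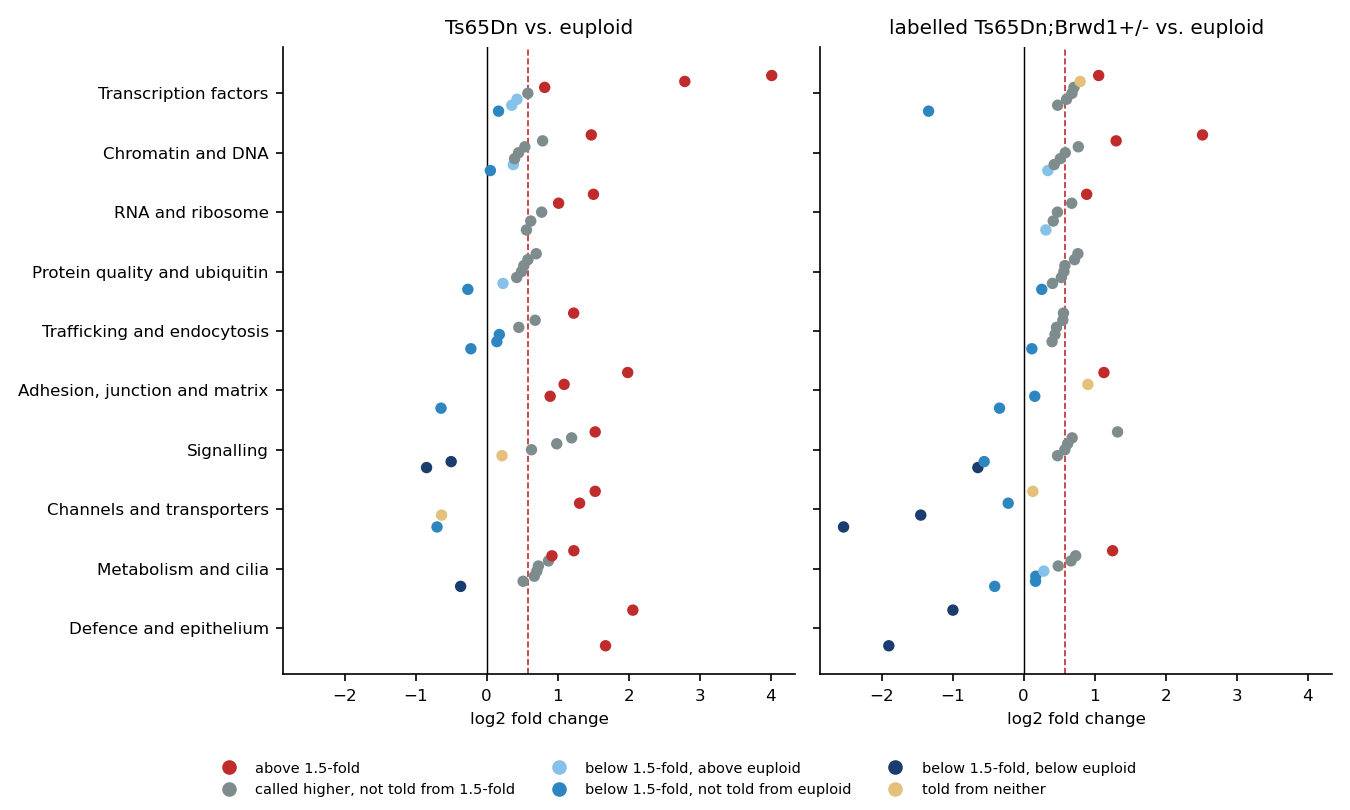
Log2 fold change vs. euploid of the tested members with a listed role, by role group, in Ts65Dn (left) and the libraries labelled Ts65Dn;Brwd1+/- (right), with the solid line at euploid and the dashed line at 1.5-fold (n = 3 libraries per genotype, colours mark the test result, Sim2 is not drawn). Among protein quality genes, Ttc3 and Ltn1 lie well under the dashed line in the left panel, and both antiviral genes lie above 0 in the left panel and below 0 in the right panel.

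In the libraries labelled Ts65Dn;Brwd1+/- the same 72 members had a median log2 fold change of 0.52 vs. euploid, with an interquartile range from 0.15 to 0.73. These libraries were set against the same euploid libraries as Ts65Dn, so the comparisons are not independent. Of the members, 43 were higher than euploid (59.7%, where 14% of all tested genes were higher) and 5 lower (6.94%, where 15.2% were lower), namely Map3k7cl, Kcne2, Clic6, Mx1 and Mx2. Without replicate 1 of those labelled Ts65Dn;Brwd1+/- 2 were lower. The call of Kcne2 (-1.45 ± 0.46) was lost without euploid replicate 2 (-0.91), Ts65Dn replicate 2 or any single library labelled Ts65Dn;Brwd1+/- (adjusted p from 0.0508 to 0.150), and with the replicate block (0.0565) or limma voom (0.0501). Clic6 (-2.54 ± 0.65) was at -1.43 without euploid replicate 2, and its call was lost without replicate 1 of those labelled Ts65Dn;Brwd1+/- (adjusted p = 0.0548). Every library labelled Ts65Dn;Brwd1+/- lay above every euploid library in 47 members, against 22.3% of all tested genes, and below in 8, against 23.6%. Against 1.5-fold, 8 exceeded it (11.1%, background 3.59%) and 20 fell short (27.8%, background 73.2%), and 6 and 17 of these did so whichever single library was left out. Of the 8, Sim2 and Gm5678 would not have passed the filter on their euploid libraries, and Sim2, with 6 reads here and none in euploid, was not told from euploid (adjusted p = 0.0587) and lost its call above 1.5-fold in 7 of 9 such fits. The class that was higher than euploid and could not be told from 1.5-fold held 33 members, with a median of 0.58. Among the 24 most expressed members, the interquartile range was 0.41 to 0.59 in libraries labelled Ts65Dn;Brwd1+/- and 0.22 to 0.93 in Ts65Dn.

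Compared with Ts65Dn directly, the libraries labelled Ts65Dn;Brwd1+/- had 15 members higher (20.8%, where 27.6% of all tested genes were higher) and 24 lower (33.3%, where 30.5% were lower), and the median difference over the 72 members was -0.02, with an interquartile range from -0.88 to 0.23. The shares of changed members were thus near those of all tested genes, which also include the 2-copy genes. The members with the largest rises were Dscam, Pcp4, Tiam1, Chaf1b, Ttc3 and Dop1b, and those with the largest falls Runx1, Sim2, Mx1, Mx2, Erg and Clic6. Runx1, Sim2 and Erg would not have been tested without their Ts65Dn reads, so the filter in part sets their falls. The fall of Clic6 (-1.90 ± 0.67, adjusted p = 0.0332) was lost without Ts65Dn replicate 2 or any single library labelled Ts65Dn;Brwd1+/- (adjusted p from 0.0638 to 0.103). For the 4 members nearest to 1.5-fold in Ts65Dn among those higher than euploid, the 95% interval of the difference on the log2 scale ran from -0.17 to 0.14 in Usp16, -0.08 to 0.34 in Ets2, -0.11 to 0.34 in Scaf4 and -0.31 to 0.02 in Urb1.

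Members outside protein-coding genes were few among those measured. Of the 11 tested, 3 were higher in Ts65Dn than in euploid and none was lower, where 25.6% of all tested genes were higher. The 3 were Mx2, the antisense transcript 4930404I05Rik, which shares exon bases with Paxbp1, and Gm16310. Gm16310 would not have passed the filter on its euploid libraries, so its call is in part set by the filter. Over the 11, the median log2 fold change was 0.42, at a median level of 0.906 CPM. Gm5678, a predicted protein-coding gene, had 2, 0 and 1 reads in euploid, 33, 18 and 22 in Ts65Dn and 12, 11 and 20 in libraries labelled Ts65Dn;Brwd1+/-, ratios of 23.6 (95% interval 7.76 to 117 from counting error only) and 13.9 (4.46 to 70.3). The library kit did not keep the strand, so reads from a gene and an antisense neighbour cannot be told apart, and 22 of the 72 tested members share exon bases with another gene. Those 22 had a median log2 fold change of 0.55 in Ts65Dn vs. euploid, and the 50 that share none had 0.65.

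The remaining 103 members, 49 of them protein-coding, had too few reads to test. In 56 no read was counted in any of the 9 libraries, and the highest single count among the rest was 14, for Tmprss2, a serine protease of epithelium. The 25 hair keratin-associated (Krtap) genes of the segment were all in this set, and 21 of them had no read. RNA of these genes was not detectable, or nearly so, at this depth.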

How the data were processed

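The RNA libraries were made with a kit that does not keep the strand. Reads were aligned by the authors with HISAT2 to mm10 and counted per gene (featureCounts is named in their methods), and the deposited values are raw counts. Lines naming no gene, which held 37.4% to 40.0% of each library, were left out of library sizes. Counts were fitted with edgeR 4.0.16 in R 4.3.3 (TMM scaling, filterByExpr, quasi-likelihood test, genotype as the only term, all 9 libraries), with Benjamini-Hochberg adjustment over 17173 genes and a threshold of 0.05. The test against the dosage ratio added log(1.5) to the offset of the trisomic libraries. The study's RUVr step could not be run here and DESeq2 1.42.0 without it was an alternative, as was limma 3.58.1. The edgeR fit was tested on simulated counts.

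Gene positions, types and exon overlaps came from the GENCODE vM21 annotation of mm10, which held 99.6% of the gene lines, and promoters from RefSeq (GRCm38.p6), with a window for 103 of the 175 members. For ATAC-seq and ChIP-seq the authors deposited 1 MACS2 peak list per genotype, with a fold enrichment ratio and a q-value per peak. How replicates were combined is not given in the sources used here. Peaks with a q-value under 0.05 and a fold over 1.2 whose edges lay within 1000 bp of an annotated start were kept.

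Members, role groups, marker lists and tests were chosen with earlier results of these data known. Members were named by a rule: the most expressed, those farthest above and below 1.5-fold, those nearest to it, the largest changes between the trisomic genotypes, the 2 most expressed of each role group and 10 fixed genes. Other members were named after their values were seen, to fill the role groups. The labels number the replicates of each genotype. Deviations of same-numbered euploid and Ts65Dn libraries from their group means correlated at 0.13, 0.21 and 0.26 across genes, so these libraries may be pairs. Differently numbered libraries of Ts65Dn and those labelled Ts65Dn;Brwd1+/- also reached 0.25. The labels do not state pairs, and the p-values come from the fit without them except where a block is named. A fit with the number as a block was an alternative. Intervals on read ratios cover counting error only.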

Additional observations from a re-analysis of the deposited data

How the results depend on the processing

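Counts of members higher than euploid, above 1.5-fold and below it stayed within 1.5 times their reported values under other size factors, filters, tools and with each library left out. The count lower than euploid did not. In Ts65Dn it was 1 with only the 2 genotypes in the fit and 5 when the replicate block was added to that fit, and it ran from 1 to 4 with single libraries left out. In the libraries labelled Ts65Dn;Brwd1+/- it was 8 with DESeq2, 8 with no filter and 9 at an adjusted p of 0.1, and from 2 to 7 with single libraries left out. The median log2 fold change in Ts65Dn vs. euploid was 0.54 with no filter and 0.54 with at least 10 counts in every library, and from 0.57 to 0.63 with single libraries left out. In the libraries labelled Ts65Dn;Brwd1+/- it was 0.47 with no filter and from 0.47 to 0.53 with single libraries left out. Their median against Ts65Dn, reported as -0.02, turned to 0.047 with library size scaling only and to 0.045 with at least 10 counts in every library, and ran from -0.059 to -0.015 with single libraries left out. The median of all tested genes in that comparison moved likewise, from 0.0005 to 0.0675 and 0.0735 under those settings, so relative to all genes the members stayed slightly lower. The cause of the other changes was not tested.

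Among 99 values of named members, 79 kept their direction and side of the threshold in every alternative. Direction turned for Setd4 in Ts65Dn vs. euploid (-0.097 without Ts65Dn replicate 1, and from there to 0.17 with other libraries left out) and Clic6 (0.47 without euploid replicate 2, and from there down to -1.02 with other libraries left out), neither of which was called. With the replicate block in all 9 libraries, 49 members were higher and 3 lower in Ts65Dn than in euploid, and 21 lay above and 16 below 1.5-fold. For the libraries labelled Ts65Dn;Brwd1+/- the block gave 44 higher and 7 lower than euploid, 8 above and 22 below 1.5-fold, and 15 higher and 22 lower than Ts65Dn. Same-numbered libraries of that genotype did not all deviate together (correlations of 0.10, -0.16 and 0.19 with euploid, and 0.28, -0.13 and 0.21 with Ts65Dn), so the numbers were not read as possible pairs there. The 24 members lowest in CPM had a median SE of 0.29 in Ts65Dn against 0.09 in the 24 highest.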
